A study of Mus musculus with 12 samples.

Results

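The chains described here are those of the non-fibrillar collagens IV, VI and VIII that were named by symbol in an expression table of mouse primary hepatic stellate cells: Col4a1, Col4a2, Col6a1, Col6a2, Col6a3 and Col8a1. All 6 symbols were found, each in a single row, among 12081 listed genes. Hepatic stellate cells are pericytes of the liver sinusoid that store vitamin A, and in culture they turn into myofibroblasts that deposit extracellular matrix. RNA was sequenced in 4 groups of 3 libraries, all from Hk2 fl/fl mice, whose Hk2 alleles (the gene of the glycolytic enzyme hexokinase 2) can be cut by Cre recombinase. The LAC group received Ad-Cre, an adenovirus that expresses Cre fused to eGFP, and 10 mM lactate for 24 h. The KO group received the same virus and no lactate, and the ACT group received an adenovirus with eGFP alone (Ad-GFP). These 3 groups were kept for 6 days in low-glucose medium with fetal bovine serum. The QS group was freshly isolated from liver by density gradient centrifugation and received neither virus nor culture. ACT and QS therefore differ in virus, culture and time together, and Hk2 loss and the presence of Cre cannot be told apart in KO and LAC. The labels do not say whether replicate libraries had different mice or dishes as their source, so a p-value here reflects library-to-library spread that could be purely technical.

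Collagen IV forms the sheet-like network of basement membranes and, in the healthy liver, lies with laminins and nidogens in the space between sinusoid and hepatocytes. Its most widespread form joins a pair of alpha1(IV) chains, encoded by Col4a1, with an alpha2(IV) chain, encoded by Col4a2, and both stellate and endothelial cells make it. Collagen VI joins the products of Col6a1, Col6a2 and Col6a3 into beaded microfibrils that link cells and basement membranes to the surrounding fibrils. Collagen VIII, of which Col8a1 encodes a chain, is a short-chain collagen that builds open lattices in vessel walls and below the corneal endothelium.

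Levels were deposited as normalized CPM (read counts scaled to library size). By estimate, these rested on 8.67 to 11.05 M reads (megareads) in LAC, 5.85 to 11.64 M in KO, 11.41 to 14.00 M in ACT and 4.35 to 10.14 M in QS. Hk2 was at 12.1 ± 1.48 CPM in KO and 181 ± 0.83 CPM in ACT (SD, n = 3), as the labels say, and at 19.3 ± 0.58 CPM in LAC and 71.2 ± 3.88 CPM in QS. None of 14 stellate markers, such as Lrat, Des and Reln, was at 0 in all libraries of a group, and their summed means were 3598 CPM in LAC, 2575 CPM in KO, 4794 CPM in ACT and 4007 CPM in QS. Most of the 14 did not follow that sum. In ACT against QS 10 were called lower and 4 higher (median log2 fold change -2.86), against 35.5% and 38.0% of all genes. In KO against ACT 10 were called higher and 3 lower (median 1.77), against 36.0% and 26.3% of all genes. Lrat, which esterifies vitamin A, averaged 14.0 CPM in LAC, 17.4 CPM in KO, 3.09 CPM in ACT and 352 CPM in QS, while Acta2, the smooth muscle actin of activated cells, averaged 1434, 653, 2656 and 2.64 CPM. Markers of other liver cells were present as well, and their values are given with the results. In these bulk libraries, a change in the share of a cell type and a change in RNA per cell cannot be told apart. A gene was called higher or lower where limma's moderated test on log2(CPM + 1), adjusted over all listed genes by Benjamini-Hochberg, gave an adjusted p under 0.05.

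The 6 chains fell into 3 patterns, by collagen type. Both collagen IV chains were higher in ACT than in QS and higher again in KO. The collagen VI chains were higher in ACT than in QS and lower in KO, and were at or below the KO level in LAC. Col8a1 was at a few CPM in QS and well above it in ACT, fell in KO to 27.0% of its ACT level, and was 4.37-fold above KO in LAC.

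In ACT, 6 of the 6 chains were called higher than in QS, against 38.0% of all genes called higher and 35.5% called lower. In KO against ACT, 2 chains were called higher and 4 lower, against 36.0% and 26.3% of all genes. Fewer genes were called for lactate: in LAC against KO, 1 chain was called higher and 4 lower, against 20.0% and 21.0% of all genes. In LAC against ACT, 2 chains were called higher and 3 lower, against 27.8% and 21.7% of all genes. Calls were so frequent over the whole table that the number of chains called carries little by itself. The values and directions of the chains are given below by collagen type.

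**Figure D1:**
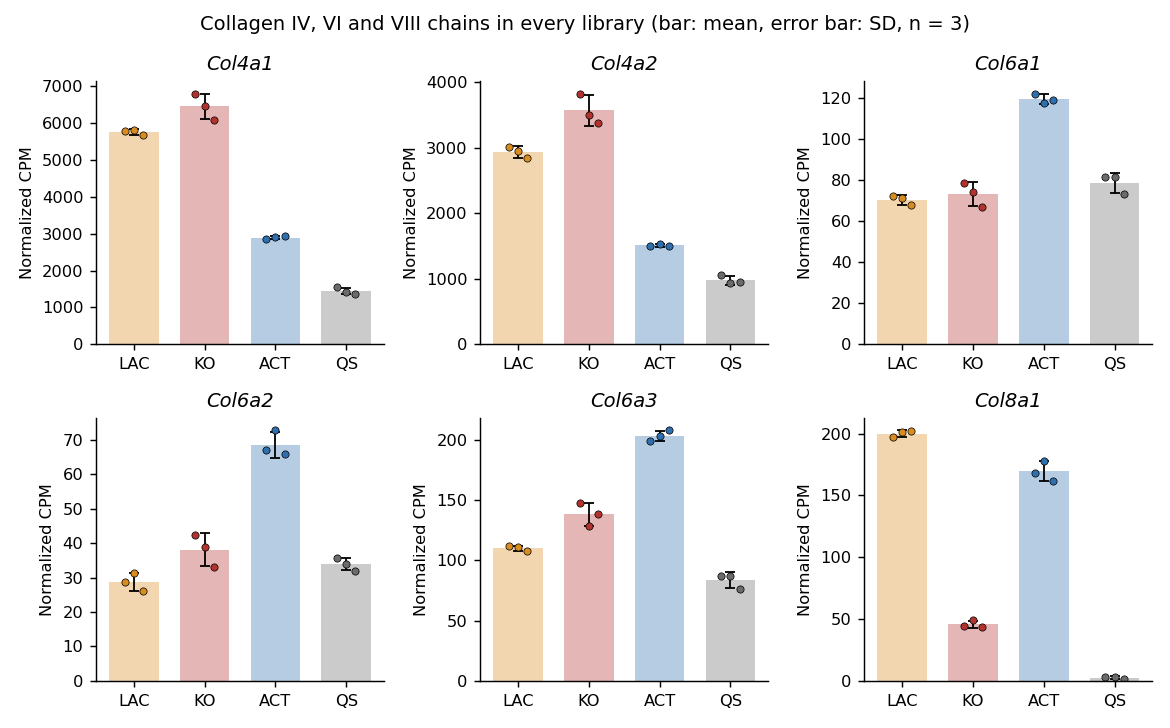
Normalized CPM of the 6 chains in each library (points), with the mean (bar) and SD (error bar) of 3 libraries per group, on a linear axis of its own for each gene. Col4a1 and Col4a2 stand highest in KO and LAC, Col6a1, Col6a2 and Col6a3 stand highest in ACT, and Col8a1 is high in LAC and ACT, low in KO and near 0 in QS.

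Col4a1 (ENSMUSG00000031502.11) lies on the minus strand of chromosome 8 at 11198423 to 11312826 (GRCm38), and Col4a2 (ENSMUSG00000031503.13) on the plus strand at 11312805 to 11449287. The genes point away from each other, and their annotated spans overlap by 22 bases at the 5′ ends. Their RefSeq start sites lie 21 bases apart, so that the windows from 250 bases before to 50 bases after each start share 78 bases, chr8:11312777-11312854. Both windows are printed from RefSeq (GRCm38.p6), 5′ to 3′ on the strand of the gene, because this arrangement is what the 2 genes share outside their levels. Capitals mark the shared bases, which are reverse complements of each other.
Col4a1, chr8:11312777-11313076, minus strand: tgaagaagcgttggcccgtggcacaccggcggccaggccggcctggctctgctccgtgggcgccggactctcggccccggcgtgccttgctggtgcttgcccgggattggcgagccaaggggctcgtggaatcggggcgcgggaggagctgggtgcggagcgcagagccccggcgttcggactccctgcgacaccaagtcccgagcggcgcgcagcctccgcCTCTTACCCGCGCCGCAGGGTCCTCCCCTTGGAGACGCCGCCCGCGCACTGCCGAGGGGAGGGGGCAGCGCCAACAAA
Col4a2, chr8:11312555-11312854, plus strand: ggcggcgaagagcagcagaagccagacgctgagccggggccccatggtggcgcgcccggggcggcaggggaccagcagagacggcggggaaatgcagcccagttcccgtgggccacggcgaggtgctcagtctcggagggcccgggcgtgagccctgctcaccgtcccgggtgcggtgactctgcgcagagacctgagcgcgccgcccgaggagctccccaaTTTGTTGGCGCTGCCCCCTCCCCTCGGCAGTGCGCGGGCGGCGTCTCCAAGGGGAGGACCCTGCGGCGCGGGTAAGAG
The windows held 74.0% and 73.7% G and C, against a median of 52.7% over 32851 promoter windows. With both strands searched, the letters CCAAT occurred 1 time in each window, and GGGCGG occurred 1 time in the Col4a1 window and 3 times in the Col4a2 window. CCAAT was present in 37.4% and GGGCGG in 35.7% of all windows, and TATAAA, present in 13.6%, was in neither. The library kit marks strand, but whether counting used strand is not given in the sources used here, so reads in the short overlap could be assigned to either gene.

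Col4a1 was the most abundant of the 6 chains. Its level was 5796, 5812 and 5677 CPM in the LAC libraries, 6793, 6479.7 and 6098 CPM in KO, 2847, 2907 and 2927 CPM in ACT, and 1541, 1404 and 1377 CPM in QS. No library of a group overlapped with a library of another group. Full separation of 2 groups was common over all genes, at 76.3% in ACT against QS and 69.2% in KO against ACT. It was 52.2% in LAC against KO, 62.8% in LAC against ACT, 72.5% in KO against QS and 74.9% in LAC against QS. These shares apply to the chains below as well. Col4a1 was 2.01-fold higher in ACT than in QS (log2 fold change 1.01, SE 0.045, limma adjusted p = 6.448e-11), and this SE is the same in every comparison of a gene because the groups share their spread. It was 2.23-fold higher in KO than in ACT (log2 fold change 1.16, limma adjusted p = 2.501e-11). In LAC it was at 89.2% of the KO level (log2 fold change -0.16, 95% interval -0.26 to -0.07, limma adjusted p = 0.01036) and still 1.99-fold above ACT (log2 fold change 0.99, limma adjusted p = 2.961e-10). Endothelial markers, from cells that also make collagen IV, summed to means of 5969 CPM in LAC, 11432 CPM in KO, 950.0 CPM in ACT and 20816 CPM in QS, and their part in these differences was not tested. Quantile normalization gave the same directions with other sizes, 0.56 for ACT against QS, 1.85 for KO against ACT and 1.74 for LAC against ACT on the log2 scale. Under that scaling the difference between LAC and KO was no longer called (adjusted p = 0.0723), and nor was it at an adjusted p under 0.01.

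Col4a2 had the same order of groups as Col4a1 at a lower level. It stood at 3011, 2951 and 2839 CPM in LAC, 3829, 3505 and 3379 CPM in KO, 1500.2, 1529 and 1497 CPM in ACT, and 1059.6, 935 and 944 CPM in QS. Here too no library overlapped with a library of another group. The step from QS to ACT was smaller than that of Col4a1, with ACT 1.54-fold above QS (log2 fold change 0.62, SE 0.051, limma adjusted p = 6.351e-08). KO was 2.37-fold above ACT (log2 fold change 1.24, limma adjusted p = 5.099e-11). LAC was at 82.2% of KO (log2 fold change -0.28, limma adjusted p = 0.0005989) and 1.94-fold above ACT (log2 fold change 0.96, limma adjusted p = 1.854e-09).

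The balance between both chains differed most between cultured and fresh cells. Within a library the ratio of Col4a1 to Col4a2 averaged 1.96 ± 0.037 in LAC, 1.81 ± 0.037 in KO, 1.92 ± 0.033 in ACT and 1.47 ± 0.027 in QS (SD, n = 3). The ratio was higher in each cultured group than in every QS library, by 0.42, 0.30 and 0.38 on the log2 scale in LAC, KO and ACT. Among the cultured groups the KO libraries were lowest, 0.08 below ACT and 0.12 below LAC in log2 ratio. An exact two-sided permutation test of 3 libraries against 3 gave p = 0.1 for each of these differences, the smallest value this design allows, and 0.111 after adjustment over 42 ratio tests. Per kilobase of the longest coding transcript, an approximate scale because the transcripts in use are not known, Col4a1 averaged 871 CPM per kb in LAC, 976 in KO, 437 in ACT and 218 in QS. On the same scale Col4a2 averaged 455, 554, 234 and 152 CPM per kb. Col1a1, the alpha1 chain of fibrillar collagen I, was at 454 CPM per kb in LAC, 253 in KO, 901 in ACT and 4.83 in QS. Col4a1 thus stood above Col1a1 per kilobase in every group but ACT, and Col4a2 did so in KO and QS and was level with it in LAC.

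The collagen IV chains rose and Col1a1 fell (log2 fold change -1.83) in KO against ACT. The ratio of Col4a1 to Col1a1 was 2.14 ± 0.083 in LAC, 4.31 ± 0.070 in KO, 0.542 ± 0.009 in ACT and 50.3 ± 2.59 in QS. KO exceeded ACT by 2.99 on the log2 scale, and LAC was 1.01 below KO and 1.98 above ACT. Every one of these differences separated the groups fully (exact permutation p = 0.1, the smallest possible).

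**Figure D2:**
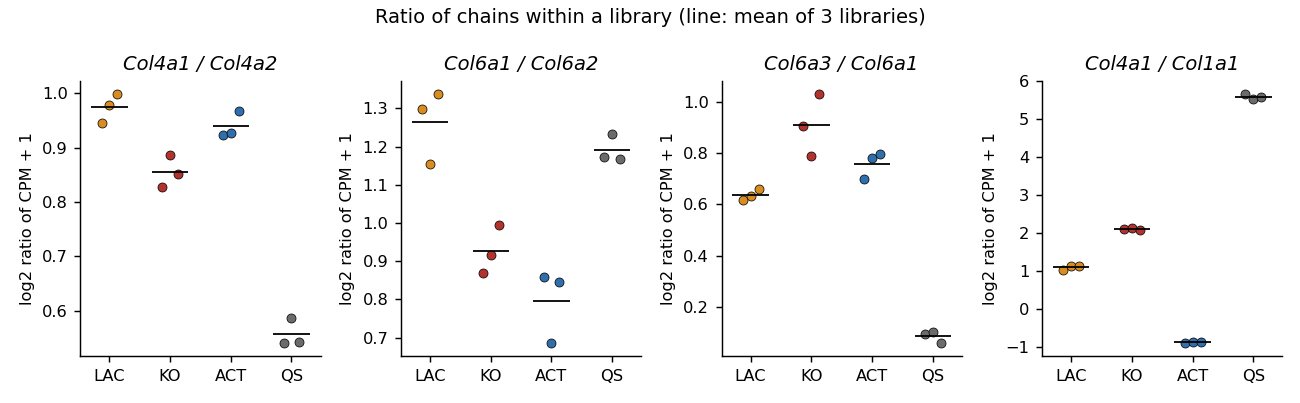
Log2 ratio of 2 chains within each library (points) and the mean of 3 libraries (line), each panel on its own vertical axis. The ratio of Col4a1 to Col4a2 is lowest in QS, the ratio of Col6a3 to Col6a1 is near 0 in QS and above 0.6 in all cultured libraries, and the ratio of Col4a1 to Col1a1 is higher in LAC and KO than in ACT.

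The other 4 collagen IV genes did not follow Col4a1 and Col4a2. Col4a5 and Col4a6, a head-to-head pair on the X chromosome whose products join in the alpha5-alpha6 network, had their highest level in ACT. Col4a5 was at 196, 204 and 214 CPM in LAC, 63.4, 51.7 and 59.4 CPM in KO, 300.5, 297 and 299 CPM in ACT, and 1.28, 1.68 and 1.67 CPM in QS. It fell in KO against ACT (log2 fold change -2.35) and rose in LAC against KO (log2 fold change 1.80), as Col8a1 did and Col4a1 did not. Col4a6 was at 3.26, 3.11 and 3.38 CPM in LAC, 0.442, 0.247 and 0.951 CPM in KO, 27.5, 28.8 and 28.2 CPM in ACT, and 0.235 CPM in 1 QS library and 0 in the others. It too fell in KO against ACT (log2 fold change -4.26) and rose in LAC against KO (log2 fold change 1.48). The start sites of Col4a5 and Col4a6 are 1343 bases apart and their windows share no base. Col4a3 and Col4a4, whose products join alpha5(IV) in the kidney filter, were detected mainly in QS. Col4a3 averaged 0.928 CPM in LAC, 1.20 CPM in KO, 0.388 CPM in ACT and 9.01 CPM in QS, and Col4a4 averaged 0.531, 1.62, 0.236 and 9.30 CPM. In each of the 3 pairs both genes were called in a common direction in ACT against QS and in KO against ACT. Col4a1 and Col4a2 rose in both comparisons, Col4a5 and Col4a6 rose in ACT and fell in KO, and Col4a3 and Col4a4 fell in ACT and rose in KO, the last at means of 1.62 CPM or less in KO.

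**Figure D3:**
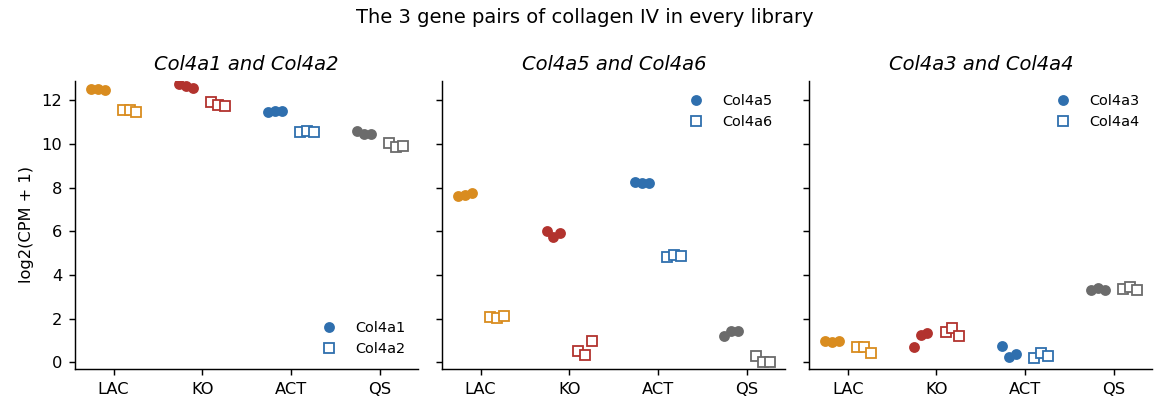
Level of the 6 collagen IV genes on the log2(CPM + 1) scale in every library, by pair of neighbouring genes, with filled circles for the first and open squares for the second gene of a pair and colours for the groups. Col4a1 and Col4a2 are highest in KO, Col4a5 and Col4a6 in ACT, and Col4a3 and Col4a4 in QS.

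The collagen VI genes Col6a1 (ENSMUSG00000001119.7, chromosome 10, 76708792 to 76726168) and Col6a2 (ENSMUSG00000020241.13, chromosome 10, 76595762 to 76623630) lie on the minus strand, 85161 bases apart. Col6a3 (ENSMUSG00000048126.16) lies on the minus strand of chromosome 1 at 90765923 to 90843971 and encodes the longest chain of the trimer. Their start sites are too far apart for a shared promoter window.

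Col6a1 was higher in ACT than in QS and lower in KO than in ACT. It was at 72.4, 71.1 and 67.8 CPM in LAC, 78.3, 74.0 and 67.1 CPM in KO, 122, 118 and 119 CPM in ACT, and 81.5, 81.3 and 73.1 CPM in QS. The ACT libraries stood above all others, while the KO range overlapped those of LAC and QS. ACT was 1.52-fold above QS (log2 fold change 0.60, SE 0.062, limma adjusted p = 7.104e-07). KO was at 61.2% of ACT (log2 fold change -0.70, limma adjusted p = 2.064e-07). LAC and KO did not differ beyond the spread: the difference of LAC from KO was -0.05 on the log2 scale with a 95% interval of -0.18 to 0.08 (limma adjusted p = 0.5426). LAC was at 58.9% of ACT (log2 fold change -0.76, limma adjusted p = 1.625e-07).

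Col6a2 also rose in ACT against QS and fell in KO against ACT, and it fell further in LAC. It was at 28.8, 31.4 and 26.2 CPM in LAC, 42.4, 38.8 and 33.2 CPM in KO, 66.9, 72.7 and 65.9 CPM in ACT, and 35.6, 34.0 and 32.0 CPM in QS. The LAC libraries lay below all others, and the KO and QS ranges overlapped. ACT was 2.02-fold above QS (log2 fold change 0.99, SE 0.093, limma adjusted p = 2.445e-07). KO was at 55.7% of ACT (log2 fold change -0.83, limma adjusted p = 2.55e-06). LAC was at 75.5% of KO (log2 fold change -0.39, limma adjusted p = 0.004114) and at 42.0% of ACT (log2 fold change -1.22, limma adjusted p = 7.306e-08).

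Col6a3 had the largest step from QS to ACT of the collagen VI chains. It was at 111, 111 and 107 CPM in LAC, 148, 128 and 138 CPM in KO, 199, 203 and 208 CPM in ACT, and 87.1, 87.2 and 76.1 CPM in QS. No library overlapped with a library of another group, and the order ran from ACT down through KO and LAC to QS. ACT was 2.43-fold above QS (log2 fold change 1.28, SE 0.059, limma adjusted p = 1.065e-10). KO was at 68.0% of ACT (log2 fold change -0.56, limma adjusted p = 1.742e-06). LAC was at 79.6% of KO (log2 fold change -0.32, limma adjusted p = 0.000625) and at 54.1% of ACT (log2 fold change -0.88, limma adjusted p = 2.201e-08).

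Since the 3 chains enter the collagen VI trimer together, their ratios were followed as well. The ratio of Col6a3 to Col6a1 was 1.56 ± 0.024 in LAC, 1.89 ± 0.16 in KO, 1.70 ± 0.061 in ACT and 1.06 ± 0.017 in QS (SD, n = 3). All cultured libraries stood above all QS libraries, by 0.55 to 0.82 on the log2 scale between group means. The ratio of Col6a1 to Col6a2 was 2.45 ± 0.17 in LAC, 1.93 ± 0.088 in KO, 1.75 ± 0.12 in ACT and 2.32 ± 0.059 in QS. It was lower in ACT than in QS by 0.39 (log2), while LAC differed from QS by 0.07 with overlapping libraries (exact permutation p = 0.4). Per kilobase, Col6a1 averaged 17.2 CPM per kb in LAC, 17.8 in KO, 29.2 in ACT and 19.2 in QS, Col6a2 averaged 6.19, 8.19, 14.7 and 7.28, and Col6a3 averaged 10.9, 13.7, 20.1 and 8.26. On this scale Col6a1 was the highest and Col6a2 the lowest of the 3 in every group, and in QS the gap between Col6a2 (7.28 ± 0.39) and Col6a3 (8.26 ± 0.63) was within about the sum of their SDs. Col4a1 exceeded Col6a1 in CPM by 81.9-fold in LAC, 88.4-fold in KO, 24.2-fold in ACT and 18.3-fold in QS. The other collagen VI gene measured, Col6a5, averaged 0.400 CPM in LAC, 0.459 CPM in KO, 8.0 CPM in ACT and 0.828 CPM in QS, highest in ACT like the 3 main chains. Col6a4 and Col6a6 were not analysed here.

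Col8a1 (ENSMUSG00000068196.5) lies on the minus strand of chromosome 16 at 57624258 to 57754737. Its promoter window (RefSeq, GRCm38.p6) is shown for comparison with the collagen IV pair. Capitals mark the letters CCGCCC, the reverse complement of GGGCGG, which occur 4 times.
Col8a1, chr16:57754688-57754987, minus strand: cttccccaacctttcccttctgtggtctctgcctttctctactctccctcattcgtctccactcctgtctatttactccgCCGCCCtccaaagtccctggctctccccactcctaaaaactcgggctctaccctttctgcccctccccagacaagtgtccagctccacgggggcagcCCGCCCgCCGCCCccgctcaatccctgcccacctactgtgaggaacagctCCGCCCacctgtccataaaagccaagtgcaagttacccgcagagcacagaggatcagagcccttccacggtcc
The window held 60.3% G and C and no CCAAT. None of the searched letters was found in the windows of Col6a1 and Col6a3, and Col6a2 had GGGCGG in the windows of both its start sites. TATAAA was in no window of the 6 genes.

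Col8a1 had the largest change of the 6 chains in ACT against QS, KO against ACT and LAC against KO. It was at 197, 201 and 202 CPM in LAC, 44.7, 49.1 and 43.4 CPM in KO, 168, 178 and 162 CPM in ACT, and 3.31, 3.12 and 1.52 CPM in QS. The groups did not overlap, and the lowest QS library rested on an estimated 7 reads. ACT was 63.95-fold above QS in mean CPM (log2 fold change on the log2(CPM + 1) scale 5.58, SE 0.15, limma adjusted p = 2.216e-13). The size of that log2 change moved with the pseudocount, from 6.02 at 0.1 to 4.52 at 5. KO was at 27.0% of ACT (log2 fold change -1.87, 95% interval -2.19 to -1.55, limma adjusted p = 7.496e-08). LAC was 4.37-fold above KO (log2 fold change 2.11, 95% interval 1.79 to 2.43, limma adjusted p = 6.735e-08).

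LAC and ACT had similar levels of Col8a1, with every LAC library above every ACT library. The mean of LAC was 118% of that of ACT (log2 fold change 0.24, 95% interval -0.08 to 0.56), which was not called (limma adjusted p = 0.2063). With only LAC and ACT in the fit the same difference had an adjusted p of 0.0007194, and without QS replicate 3, the library with the lowest level, an adjusted p of 0.004063. A pseudocount of 5 gave 0.02609. Macrophage markers, which summed to means of 3691 CPM in LAC, 549.7 CPM in KO, 15201 CPM in ACT and 7319 CPM in QS, were also lower in KO than in LAC and ACT.

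Relative to collagen I, KO and ACT had overlapping levels of Col8a1. The ratio of Col8a1 to Col1a1 was 0.0745 ± 0.0044 in LAC, 0.0306 ± 0.0024 in KO, 0.0317 ± 0.0018 in ACT and 0.0919 ± 0.032 in QS. The difference between KO and ACT was -0.03 on the log2 scale (SE 0.080, exact permutation p = 0.7), and its sign turned in 3 of 8 alternatives, while LAC exceeded KO by 1.26 and ACT by 1.23 (exact permutation p = 0.1, the smallest possible). The second chain gene, Col8a2, was low throughout, at 0.600 CPM in LAC, 0.214 CPM in KO, 5.06 CPM in ACT and 0.173 CPM in QS on average. It fell in KO against ACT (log2 fold change -2.32) and was not called in LAC against KO (log2 fold change 0.40).

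**Figure D4:**
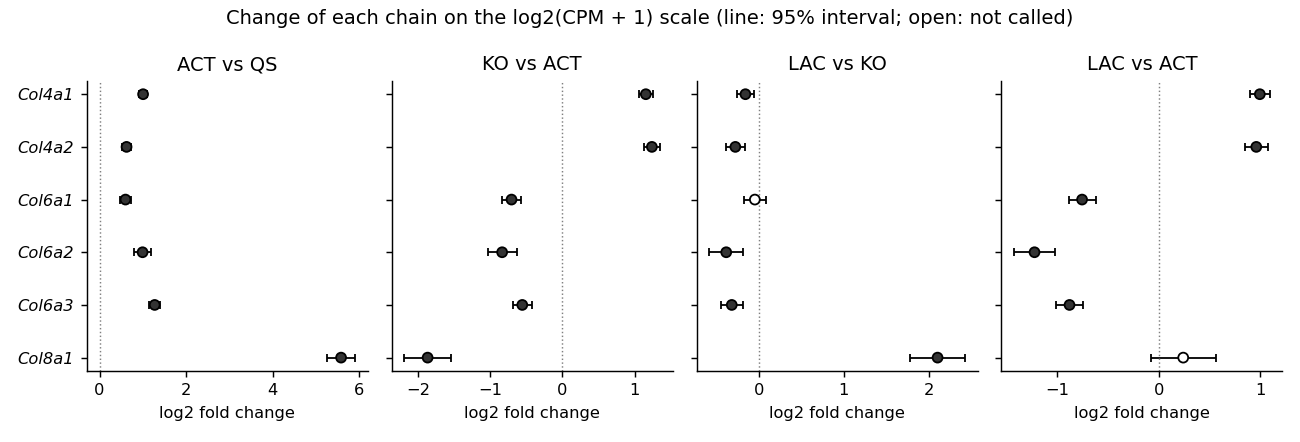
Log2 fold change of each chain on the log2(CPM + 1) scale in 4 comparisons, with 95% intervals from the limma fit, filled where called and open where not, each panel on its own horizontal axis. The collagen IV chains lie right of 0 in KO against ACT and the other 4 left of it, and in LAC against KO only Col8a1 lies right of 0.

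Against QS, KO and LAC differed by chain. In KO against QS 4 chains were called higher and 0 lower, against 37.4% and 35.7% of all genes, and in LAC against QS 4 were called higher and 2 lower, against 37.4% and 36.2% of all genes. Col4a1 was 4.48-fold above QS in KO, and 4.0-fold above QS in LAC. For Col4a2 the folds were 3.65 in KO and 3.0 in LAC, and for Col6a3 1.65 in KO and 1.32 in LAC, all called. Col8a1 was 17.3-fold above QS in KO and 75.5-fold in LAC. Col6a1 and Col6a2 in KO did not differ from QS beyond the spread (log2 fold changes -0.10 and 0.16, limma adjusted p = 0.1437 and 0.1346). In LAC they were called lower than in QS, at 89.6% for Col6a1 and 85.0% for Col6a2 (limma adjusted p = 0.03524 and 0.03845). These small differences near the QS level depended on the setting: neither LAC call held when libraries were scaled to an equal total, median or quantiles, or without QS replicate 1, QS replicate 2 or LAC replicate 3. The call of Col6a1 was also lost without LAC replicate 2, and that of Col6a2 without LAC replicate 1 or ACT replicate 1. Col6a1 in KO was called lower than QS without QS replicate 3 (adjusted p = 0.04262) or KO replicate 1 (adjusted p = 0.04495). Col6a2 in KO was called higher than QS without KO replicate 3 (adjusted p = 0.02049).

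Other basement membrane genes rose with collagen IV in KO, but not all of them. Of 21 partner genes measured, 12 were called higher in KO than in ACT and 4 lower, against 36.0% and 26.3% of all genes. Their median log2 fold change was 0.39 against 0.07 over all genes. Nid1, which links laminin to collagen IV, averaged 4411 CPM in LAC, 3914 CPM in KO, 1812 CPM in ACT and 471 CPM in QS, with a log2 fold change of 1.11 in KO against ACT. Pxdn, the peroxidase that crosslinks collagen IV, rose by 1.12 (log2), and Tinagl1, a laminin-binding matrix protein, by 1.88. Lama1, a laminin chain, rose by 2.46 to 60.7 CPM in KO, against 10.2 CPM in ACT, and stood at 106 CPM in QS. In the other direction, Col15a1, a collagen at the outer side of basement membranes, fell by 4.19, Npnt, an integrin ligand, by 4.39 and Lama2, the laminin chain known from muscle, by 2.02. Those 3 were the partners with the largest rises in LAC against KO, with log2 fold changes of 3.24 for Col15a1, 2.14 for Npnt and 2.15 for Lama2. In that comparison 7 of the 21 were called higher and 6 lower (median -0.05 against -0.02 over all genes), against 20.0% and 21.0% of all genes. In ACT against QS, 11 were higher and 9 lower, against 38.0% and 35.5% of all genes, with a median of 0.18 against 0.03.

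Genes of proteins that bind the collagen VI microfibril were called in both directions. Of 8 measured, 4 were called higher and 3 lower in KO than in ACT, where 36.0% of all genes were called higher and 26.3% lower, with a median log2 fold change of 0.17 against 0.07 over all genes. Fn1 (fibronectin) fell by 3.98 and Mfap5, a microfibril glycoprotein, by 2.19, while Tnxb (tenascin X) rose by 1.14 and Matn2 (matrilin 2) by 0.76. In LAC against KO, 4 were higher and 3 lower, against 20.0% and 21.0% of all genes. Mfap5 stood at 1.73 and Fn1 at 1.53 above KO, and Tgfbi at -1.15.

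Collagen receptors showed more falls than rises in KO against ACT. Of 16 receptor genes, 4 rose and 10 fell in KO against ACT (median -0.22 against 0.07 over all genes). Of all genes, 36.0% were called higher and 26.3% lower there. Itga1, the integrin subunit that favours collagen IV, rose by 1.65 on the log2 scale and Itgb3 by 1.75. Lair1, an inhibitory collagen receptor of leukocytes, fell by 5.10, Itga11, an integrin subunit for fibrillar collagen, fell by 2.66 and Antxr1, which binds collagen VI, fell by 1.96. In LAC 10 receptors were higher and 2 lower than in KO (median 0.40 against -0.02), against 20.0% and 21.0% of all genes. The receptors higher in LAC included Lair1 at 3.06, Itga2 at 1.39, Antxr1 at 0.80 and, at under 5 CPM in both groups, Itga11 at 1.41. Itga1 fell by 0.46. In ACT against QS 14 receptors were higher and 2 lower (median 1.31), against 38.0% and 35.5% of all genes. Ddr1, a collagen-binding receptor kinase, was at 3.77 there.

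The enzymes and chaperones that fold and export collagen had a median change near that of all genes between KO and ACT. Of 24 measured, 9 were called higher and 6 lower in KO against ACT, where 36.0% of all genes were called higher and 26.3% lower. The median log2 fold change was 0.04 against 0.07 over all genes. P3h2, a prolyl 3-hydroxylase that modifies collagen IV, rose by 1.49, to 40.5 CPM in KO, against 13.8 CPM in ACT. Plod2, a lysyl hydroxylase of fibrillar collagen telopeptides, fell by 0.77, and P3h4 by 1.43. Serpinh1, the collagen chaperone HSP47, averaged 1125 CPM in KO and 1106 CPM in ACT and was not called. In ACT against QS 20 of the 24 were higher and 2 lower (median 1.08), against 38.0% and 35.5% of all genes. In LAC against KO 6 were higher and 4 lower, against 20.0% and 21.0% of all genes. Plod2 was at 0.72 and P4ha3, a prolyl 4-hydroxylase subunit, at 1.63 there.

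Proteases that cleave collagen IV and their inhibitors changed in both directions. All 13 measured were called in KO against ACT, 5 higher and 8 lower (median -0.68 against 0.07 over all genes, of which 36.0% were called higher and 26.3% lower). Mmp12, the macrophage metalloelastase, fell by 6.49 on the log2 scale, and Mmp9, a gelatinase, by 4.48, while Mmp3 (stromelysin 1) rose by 2.00. In LAC against KO 10 were higher and 2 lower (median 0.73 against -0.02 over all genes, of which 20.0% were called higher and 21.0% lower), with Mmp12 at 4.07 and Mmp19 at 1.86. For comparison, 1 of 9 fibrillar collagen chains was called higher and 7 lower in KO against ACT (median -1.47), and 6 were higher and 0 lower in LAC against KO (median 1.02). The fibrillar chains summed to 6632 CPM in LAC, 3441 CPM in KO, 12791 CPM in ACT and 571 CPM in QS, while the 6 non-fibrillar chains summed to 9105, 10323, 4963 and 2619 CPM.

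Markers of other liver cells moved along with these comparisons. The 22 endothelial markers summed to 5885 to 6119 CPM in LAC, 10773 to 12033 CPM in KO, 939 to 969.8 CPM in ACT and 20587 to 21159 CPM in QS, and none was at 0 throughout a group. In KO against ACT, where collagen IV rose, 21 of them were called higher (36.0% of all genes). In LAC against KO, where collagen IV fell, 20 of them were called lower (21.0% of all genes). In ACT against QS all 22 were lower (35.5% of all genes) while collagen IV rose. QS had the highest endothelial sum and the lowest collagen IV level. The 20 macrophage markers summed to 3670 to 3710 CPM in LAC, 541.7 to 559 CPM in KO, 14986 to 15329 CPM in ACT and 7301 to 7353 CPM in QS. Of them, 18 were called lower in KO against ACT (26.3% of all genes) and 15 higher in LAC against KO (20.0% of all genes). In ACT against QS 10 were called higher and 7 lower, against 38.0% and 35.5% of all genes. Lyz2 was the largest part of the ACT sum, at 9165 to 9462 CPM in ACT and 498 to 540 CPM in QS. Col8a1 and Col4a5 fell in KO against ACT and rose in LAC against KO as well. In QS, however, both were at their lowest, with means of 2.65 and 1.54 CPM, while the macrophage sum was above that of LAC. Col8a1 was also not lower in LAC than in ACT, where the macrophage sum was higher. The 24 hepatocyte markers summed to 376 to 394 CPM in LAC, 727 to 769 CPM in KO, 453.5 to 471 CPM in ACT and 3397 to 3472 CPM in QS. Nearly all of the LAC sum came from Ass1 and Trf, at 259 to 267 and 116 to 124 CPM in the LAC libraries. A mean of at least 5 CPM was reached by 2 of the 24 in LAC, 21 in KO, 5 in ACT and 24 in QS. Of the 24 markers, 9 were at 0 in all LAC libraries and 1 in all ACT libraries. Most moved in the directions of the endothelial markers. In KO against ACT 23 were called higher and 1 lower (median log2 fold change 2.46), against 36.0% and 26.3% of all genes. In LAC against KO 2 were higher and 22 lower (median -3.41), against 20.0% and 21.0% of all genes. In ACT against QS 0 were higher and 23 lower (median -5.12), against 38.0% and 35.5% of all genes. The 8 mesothelial markers summed to 47.7 to 49.9 CPM in LAC, 30.9 to 35.3 CPM in KO, 234 to 254 CPM in ACT and 23.3 to 25.5 CPM in QS. For the 9 portal fibroblast and smooth muscle markers the sums were 1298 to 1355, 686 to 724, 1691 to 1740.3 and 208 to 239 CPM. Of these 9, 2 were called higher and 6 lower in KO against ACT, against 36.0% and 26.3% of all genes. In LAC against KO 6 were higher and 1 lower, against 20.0% and 21.0% of all genes. The part of these cells in the collagen changes was not tested.

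**Figure D5:**
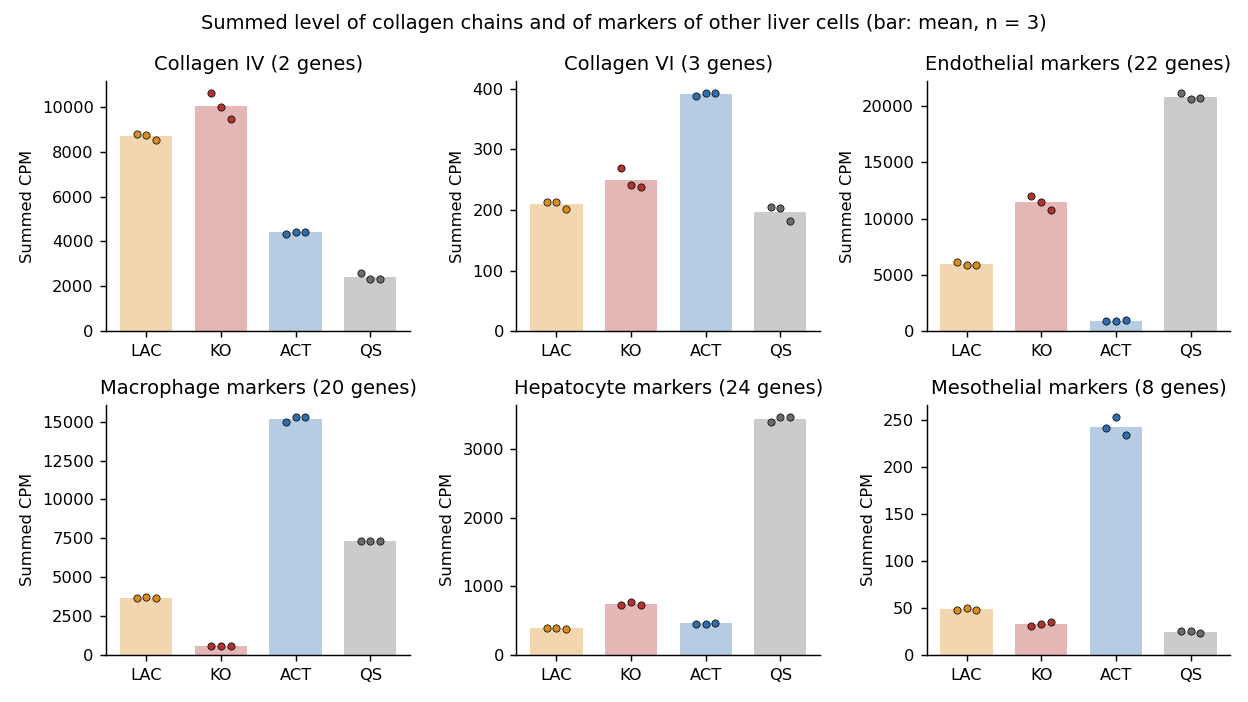
Summed CPM of the collagen IV and collagen VI chains and of 4 lists of marker genes of other liver cells in each library (points) with the mean of 3 libraries (bar). Collagen IV and the endothelial sum are both higher in KO than in ACT and part ways in QS, while collagen VI and the macrophage and mesothelial sums are highest in ACT. Lyz2 is the largest part of the macrophage sum in ACT.

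Each chain was compared with 10735 genes of at least 5 CPM on average by the root mean square difference of their centred log2(CPM + 1) values over the 12 libraries, which share 4 group means. The gene most like Col4a1 was Epha2, an ephrin receptor kinase, with a difference of 0.086 and a Pearson r of 0.998. After it came Oaf, Got2, Paqr7 and Rpa1, between 0.117 and 0.126, and Col4a2 stood at 0.166 with r of 0.990. Close to Col4a2 were Mtmr10 (0.119), Pgpep1, Gsto1 and again Epha2 (0.130). Col6a1 was closest to Ank, a pyrophosphate transporter (0.094), Fkbp2, Aldh9a1, Nt5c2 and Lamtor2. For Col6a2 the list was Pals2 (0.161), Hivep3, Col6a1 (0.201, r of 0.953), Cotl1 and Hax1, and for Col6a3 it was Mvd (0.120), Htra2, Nasp, Mthfd2 and Mcm7. The genes nearest to Col8a1 were Prrx1, a mesenchymal transcription factor (0.339, r of 0.991), Tgfb3, a TGF-beta ligand (0.365), Cpe, Bdnf and the fibrillar chain gene Col11a1 (0.393). Between types the differences were larger than within a type, at 0.783 for Col4a2 and Col6a3, 1.02 for Col4a1 and Col6a1 and 1.82 for Col4a1 and Col8a1. Pearson r of Col8a1 with the other chains ranged from 0.276 (Col6a1) to 0.711 (Col4a1).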

How the data were processed

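The authors deposited a table with a column per library. The deposited signal values had been normalized to library size (CPM) by the authors, going by the table's name, with a further scaling factor, since column totals run from 959233 to 1047042. The tools named in the submitters' processing notes, with no role or order, are kallisto 0.44.0, edgeR 3.8, cutadapt 1.18 and FastQC 0.11.8, on the build mm10. Every listed gene had at least 1 CPM in at least 3 libraries. Only 19.1% to 25.7% of all values above 0 in a library lay within 0.01 of a whole read, so the values were not tested as counts. Members' estimated reads per library ranged from 7 (Col8a1) to 80907 (Col4a1).

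Limma 3.58.1 in R 4.3.3 fitted 4 group means to log2(CPM + 1) of all 12 libraries (8 residual degrees of freedom, intensity trend), adjusted by Benjamini-Hochberg over 12081 genes within each of 6 comparisons, and was tested on simulated data. Fold changes on this scale understate those of low genes. Ratios were tested by exact two-sided permutation with SciPy 1.17.1. Coordinates came from GENCODE M21. Promoter letters were searched on both strands.

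Named were the 6 members, up to 4 called genes per list and comparison with the largest change and at least 5 CPM in the higher group, genes whose role was needed, and the 5 genes most like each member, 1 of which is not reported here. Members and lists were chosen with earlier results of these data known. Alternatives were pseudocounts, scalings, a filter, the groups in the fit, moderation, weights, thresholds, a replicate block and leaving out each library.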

Additional observations from a re-analysis of the deposited data

How the results depend on the processing

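For ACT against QS, KO against ACT, LAC against KO and LAC against ACT, the log2 fold changes of the 6 chains were recomputed under 23 other settings, leaving the 2-fold threshold aside, and 547 of 552 values kept direction and call. The others were Col4a1 in LAC against KO (not called with quantiles or at an adjusted p under 0.01) and Col8a1 in LAC against ACT (called in 3 settings). No chain changed direction in these 4 comparisons. Several settings could change only the call, because they leave the log2 fold change as it is. These were the filter, the replicate block, the fit of 2 groups, no intensity trend and the threshold of 0.01. Leaving out a library outside the 2 groups compared likewise could not change the direction. Requiring a 2-fold change left 3 chains higher in ACT than in QS, 1 lower in KO than in ACT, 0 lower in LAC than in KO, and 0 higher and 1 lower in LAC than in ACT. It left 3765 genes called in ACT against QS, 2289 in KO against ACT, 882 in LAC against KO, 1524 in LAC against ACT, 3338 in KO against QS and 3627 in LAC against QS. Chains lower in LAC than in QS, 2 as reported, numbered 0 with an equal total, an equal median, quantiles, no intensity trend, an adjusted p under 0.01 or a 2-fold threshold, 1 with array weights, and 0 to 2 when a library was left out. Chains lower in KO than in QS, 0 as reported, numbered 0 to 1 when a library was left out. An equal total, for which the mean scaling factors of KO and QS differ by 0.113 (log2), turned Col6a1 in KO against QS to 0.0073. With equal totals, equal medians and quantiles, Col6a2 in KO was called higher than in QS, at 0.27, 0.24 and 0.25. The log2 ratio of Col8a1 to Col1a1 in KO against ACT turned to 0.0497 at a pseudocount of 5, and ranged from -0.0915 to 0.0185 when a library was left out. Libraries of different groups with the same number correlated by -0.035 to 0.102 after group means were removed, over 0.1 in 1 of 18 pairs. With different numbers the range was -0.095 to 0.078. The labels do not say whether the number pairs libraries, and such correlations from 3 libraries per group cannot exclude it. With a replicate block the genes called numbered 8893, 7542, 4935 and 5952 in the 4 comparisons and 8816 and 8905 in KO and LAC against QS, and no count of chains changed. The cause of these shifts was not tested. Depth limits Col8a1 in QS, at 7 estimated reads in a library.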
